A study of Mus musculus with 8 samples.

Results

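The expression of 53 genes that work in S phase and DNA replication was followed in B16F10 cells, a mouse melanoma line, by RNA sequencing. The genes were taken by symbol from a list of origin licensing factors, helicase subunits, polymerases, clamp loaders, nucleotide enzymes and G1/S regulators, and all 53 were among the 55414 genes of the deposited table. Levels are TPM, the abundance of a gene's transcripts relative to all transcripts of a library, with length taken into account. Wild type (WT) cells and cells with the CypD gene knocked out (CypD KO) were kept at 21% oxygen. Cells stably transfected with the empty pcDNA vector (Control) or with pcDNA-CypD (CypD OE) were kept at 1% oxygen. Every group was cultured for 24 h and had 2 libraries. CypD, or cyclophilin D, is a mitochondrial matrix protein encoded by *Ppif* that regulates the permeability transition pore. The knockout was made with CRISPR/Cas9 and puromycin selection and the vector lines with G418 selection, so the groups also differ in how the cells were selected. Whether the libraries of a group came from separate cultures is not stated, so the p-values below measure the spread between libraries, which may be technical.

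Replication is prepared before it begins. In G1 the origin recognition complex, *Cdc6* and *Cdt1* load the *Mcm2* to *Mcm7* ring onto origins, and in S phase *Cdc45* and the GINS complex turn that ring into the moving helicase. Primase with DNA polymerase alpha starts each strand, polymerases delta and epsilon extend it on the sliding clamp *Pcna*, and *Fen1* and *Lig1* join the Okazaki fragments. Most of these genes are transcribed at G1/S under E2F factors, which the retinoblastoma proteins hold back until cyclin-dependent kinases release them. In a culture of cells in different phases, the level of such a gene cannot tell fewer cells in S phase from less RNA per cell.

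*Ppif* itself measured 50.7 and 49.99 TPM in WT against 10.4 and 12.1 TPM in CypD KO. Control measured 44.6 and 42.25 TPM against 50.3 and 49.3 TPM under the CypD OE label, a log2 difference of 0.19 that did not pass the threshold (limma adjusted p = 0.0794). Directions drawn from those 2 libraries therefore rest on their label. Depth, estimated from the steps between low TPM values, was about 25700000 to 29800000 fragments per library, and the member with the fewest fragments, *E2f2*, had about 200 in its lowest library. All 7 melanocyte markers were expressed, with a summed level of 15755 and 15665 TPM in WT, 12587 and 12433 TPM in CypD KO, 20446 and 20984 TPM in Control and 13758 and 13586 TPM under the CypD OE label. The largest part of each sum was *Tyrp1*, at 6290 to 10632 TPM. In CypD KO 5 of the 7 were lower than in WT and 1 was higher, beside 18.4% and 30.1% of all genes tested. The higher one, *Tyr*, was at 167 and 147 TPM against 37.4 and 41.25 TPM (log2 fold change 1.97, adjusted p = 4.02e-06). *Ptprc*, the pan-leukocyte marker, was at 0.02 TPM or less and the endothelial marker *Cdh5* and the keratinocyte markers *Krt5* and *Krt14* were at 0 in all 8 libraries, while the macrophage-associated *Cd68* was at 21.9 and 23.3 TPM in CypD KO against 3.75 and 3.45 TPM in WT. *Cd68* was also lower under the CypD OE label, at 1.13 and 1.91 TPM, than in Control, at 4.81 and 4.2 TPM (log2 fold change -1.14, adjusted p = 0.00205). The only endothelial marker high enough to test, *Vwf*, was at 2.9 and 3.01 TPM in Control. It was at 0.71 and 0.38 TPM under the CypD OE label (-1.36, adjusted p = 0.00552) and 1.42 and 0.51 TPM in WT (Control minus WT 1.05, adjusted p = 0.0243). Of 7 fibroblast markers, 2 were high enough to test, and the list summed to 37.2 and 34.2 TPM in CypD KO against 17.7 and 15.6 TPM in WT, with *Postn* at 34.8 and 31.2 TPM against 8.04 and 8.07 TPM, while *Dcn* and *Thy1* were at 0 in all libraries. The other tested marker, *Col1a2*, went the other way, at 1.09 and 2.17 TPM in CypD KO against 9.03 and 6.87 TPM in WT (log2 fold change -1.79, adjusted p = 0.00176), and was at 3.82 and 2.22 TPM under the CypD OE label against 11.4 and 9.65 TPM in Control (-1.54, adjusted p = 0.00482). The part of these markers in the results below was not tested.

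The start sites of the members were searched for motifs that E2F factors and the CCAAT-binding factor NF-Y are known to read, and the sequences of 5 of them are shown so that the levels below can be read beside them. Windows of 300 bases, from 250 before to 50 after the start of the Ensembl canonical transcript, were searched on both strands of GRCm39. An E2F motif (TTTCCCGC, TTTCGCGC, TTTGCCGC or TTTGGCGC) was present in 17 of the 53 windows (32.1%), against 465 of 11296 windows of the protein-coding genes tested (4.12%). The CCAAT box was present in 30 members (56.6%) against 40.4% of all windows. The cell cycle homology region of mitotic genes (TTTGAA) was present in 4 members (7.55%) against 13.3%, and the core of the hypoxia response element (ACGTG or GCGTG) in 33 members (62.3%) against 62.9%. No match of one motif overlapped a match of another in the members. A match is a description of the letters and not a measured binding site. Shown 5′ to 3′ on the strand of the gene, from 160 bases before to 35 after the start, are *Mcm5* (chr8:75835980-75836174, plus strand), *Mcm6* (chr1:128287418-128287612, minus strand), *Gins1* (chr2:150751326-150751520, plus strand), *Mcm10* (chr2:5017595-5017789, minus strand) and *Brca1* (chr11:101442746-101442940, minus strand). *Mcm5* and *Mcm6* are subunits of one ring, *Gins1* and *Mcm10* had the lowest CypD KO levels relative to WT, and *Brca1* had the largest difference between the libraries at 1% oxygen. *Mcm6* was picked after its values were seen. Capitals mark the E2F motif and the CCAAT box on either strand.
Mcm5: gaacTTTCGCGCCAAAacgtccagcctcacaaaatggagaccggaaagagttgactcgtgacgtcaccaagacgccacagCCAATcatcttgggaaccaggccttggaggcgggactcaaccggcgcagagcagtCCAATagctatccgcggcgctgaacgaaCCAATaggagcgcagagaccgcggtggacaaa
Mcm6: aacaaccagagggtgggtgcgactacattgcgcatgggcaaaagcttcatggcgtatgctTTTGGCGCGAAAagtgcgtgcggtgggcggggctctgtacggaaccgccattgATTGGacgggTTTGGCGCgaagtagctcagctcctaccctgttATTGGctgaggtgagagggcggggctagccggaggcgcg
Gins1: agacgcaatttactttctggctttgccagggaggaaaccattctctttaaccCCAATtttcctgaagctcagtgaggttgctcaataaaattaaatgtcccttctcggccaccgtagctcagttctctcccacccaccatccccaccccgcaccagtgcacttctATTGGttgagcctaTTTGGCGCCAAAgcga
Mcm10: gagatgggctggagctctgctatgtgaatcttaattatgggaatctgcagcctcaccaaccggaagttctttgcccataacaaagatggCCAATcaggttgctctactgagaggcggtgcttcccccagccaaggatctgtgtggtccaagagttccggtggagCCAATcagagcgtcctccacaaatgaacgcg
Brca1: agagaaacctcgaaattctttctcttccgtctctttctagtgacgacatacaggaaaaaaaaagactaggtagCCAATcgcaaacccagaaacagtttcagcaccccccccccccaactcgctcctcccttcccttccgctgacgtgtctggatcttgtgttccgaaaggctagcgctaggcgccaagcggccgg
*Mcm5*, *Mcm6* and *Gins1* each hold a pair of E2F matches that face each other and share bases, and *Mcm6* one more, whereas *Mcm10* and *Brca1* hold none in these windows.

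CypD KO and WT were compared first, which asks how loss of CypD bears on the replication genes at normal oxygen. Of the 53 members, 34 were lower in CypD KO with an adjusted p under 0.05 (64.2%) and 1, the cyclin E2 gene *Ccne2*, was higher (1.89%). Over the 13526 genes tested, 18.4% were lower and 30.1% were higher. The median log2 fold change was -0.25 in the members and 0.089 in all genes tested, and 44 of the 53 were below 0. Both CypD KO libraries lay below both WT libraries for 41 members, against 29.6% of all genes tested. CypD KO had the lowest mean of the 4 groups for 37 of the 53, a count that was not made over all genes. CypD KO replicate 1 was the lowest of the 8 libraries for 18 members and replicate 2 for 19. Over the 13526 genes tested those counts were 1454 and 1736. The median deviation of the members from their means over the 8 libraries was -0.185 in CypD KO replicate 1 and -0.183 in replicate 2 on the log2 scale, while it was 0.045 to 0.078 in the other 6 libraries. For all genes tested it was 0.067 and 0.051 in CypD KO and -0.036 to -0.005 in the other 6. In the median-of-ratios scaling, which sets the median gene near 0, 41 members were lower and 1 was higher, beside 25.7% and 23.7% of all genes. After correction for GC content and transcript length the counts were 44 and 1, beside 30.0% and 20.9%.

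**Figure D1:**
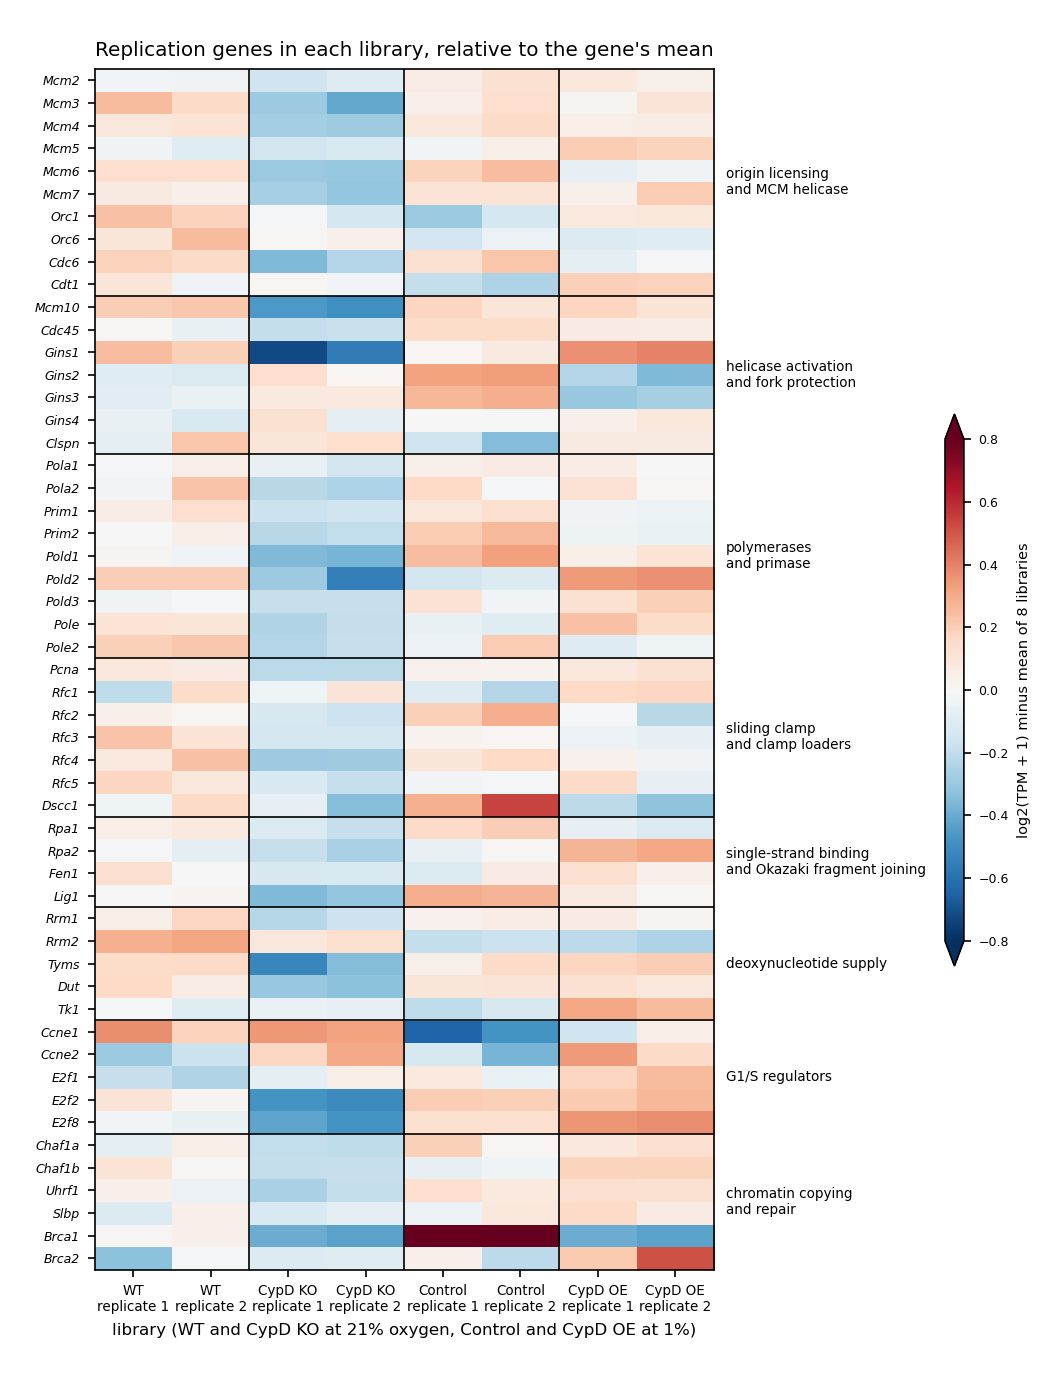
Level of the 53 replication genes in each of the 8 libraries, as log2(TPM + 1) minus the gene's mean over the 8 libraries, with genes in rows grouped by role and libraries in columns grouped by condition. Blue is below and red above the gene's mean, and colours end at 0.8 in either direction. Both CypD KO columns are blue for most genes, at a median of -0.185 and -0.183, while Brca1 is darkest red in both Control libraries.

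Origin licensing and the MCM ring held 10 members, of which 7 fell in CypD KO and 0 rose, with log2 fold changes from -0.55 to -0.037. The 6 ring subunits are needed in equal numbers in the protein complex, and their genes moved by unequal amounts. *Mcm6* measured 263.3 and 262.9 TPM in WT against 195 and 194 TPM in CypD KO (log2 fold change -0.43, standard error 0.032, adjusted p = 7.55e-05). Within each group its libraries were nearly the same. *Mcm2* measured 211 and 209.8 TPM in WT against 191 and 199 TPM in CypD KO (log2 fold change -0.11, standard error 0.035, adjusted p = 0.041). The groups did not overlap for *Mcm2*, but the mean fell by 7.26% and the call was lost when any 1 of the WT, CypD KO or CypD OE libraries was left out (adjusted p = 0.0511 to 0.184) and in the fits of the 4 libraries alone, without a trend in the variance and without the filter on low values (adjusted p = 0.0589 to 0.134). In the median-of-ratios scaling *Mcm2* kept its call with a larger fall (log2 fold change -0.22, adjusted p = 0.00179). The same held after correction for GC content and length (-0.32, adjusted p = 0.000238). *Mcm5* measured 121 and 115 TPM in WT against 111 and 113 TPM in CypD KO, with a log2 fold change of -0.073 that did not pass (adjusted p = 0.177). It passed in the median-of-ratios scaling (log2 fold change -0.19, adjusted p = 0.0072). *Cdc6*, the loading factor, measured 51.8 and 50.6 TPM in WT against 35.4 and 38.6 TPM in CypD KO (log2 fold change -0.46, standard error 0.061, adjusted p = 0.000923). *Cdt1*, its partner in loading, overlapped between the groups, and *Orc6* did not pass.

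The factors that turn the loaded ring into a helicase were divided, with 3 of 7 lower, 0 higher and a median log2 fold change of 0.042. *Gins1* measured 42.4 and 40.8 TPM in WT against 21.2 and 23.9 TPM in CypD KO. It had the lowest log2 fold change of all members, -0.86 (standard error 0.066, adjusted p = 8.73e-05), and its CypD KO mean was 54.2% of WT. The other subunits of the same tetramer, *Gins2*, *Gins3* and *Gins4*, had log2 fold changes of 0.18, 0.15 and 0.12 and none passed. *Mcm10*, which helps activate the helicase, measured 74.5 and 75.7 TPM in WT against 46.9 and 46.0 TPM in CypD KO (log2 fold change -0.68, standard error 0.045, adjusted p = 4.62e-05). *Cdc45* fell by 10.8%, and the fork protection gene *Clspn* overlapped between the groups.

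Among the polymerases and primase 8 of 9 fell, and the ninth, *Pola1*, had both CypD KO libraries below both WT libraries without passing (log2 fold change -0.12, adjusted p = 0.108). *Pold2*, the small subunit of polymerase delta, measured 44.70 and 44.73 TPM in WT against 31.65 and 26.15 TPM in CypD KO (log2 fold change -0.62, standard error 0.085, adjusted p = 0.00111). The CypD KO libraries stood farther from each other than the WT libraries did, and both were below WT. The other 7 that fell ranged from -0.41 to -0.17 and took in the catalytic subunits of delta (*Pold1*) and epsilon (*Pole*) and both primase subunits.

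The sliding clamp *Pcna* measured 467 and 461 TPM in WT against 379.5 and 379 TPM in CypD KO (log2 fold change -0.29, standard error 0.024, adjusted p = 0.000116). Of the clamp loader subunits, *Rfc3*, *Rfc4* and *Rfc5* fell, with log2 fold changes from -0.44 to -0.28, while *Rfc1* overlapped and *Rfc2* and the cohesion-linked loader subunit *Dscc1* did not pass. In the group of single-strand binding and fragment joining, *Rpa1*, *Rpa2* and *Lig1* fell, with log2 fold changes from -0.34 to -0.18, and *Fen1* did not pass at -0.19 (adjusted p = 0.0737).

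Nucleotide supply fell in 4 of 5 genes. *Tyms*, thymidylate synthase, measured 140.7 and 141.3 TPM in WT against 87.9 and 99.7 TPM in CypD KO, which is 66.5% of WT (log2 fold change -0.59, standard error 0.065, adjusted p = 0.000416). *Rrm2*, the small subunit of ribonucleotide reductase, was the most abundant member, at 543 and 556 TPM in WT and 476 and 487 TPM in CypD KO (log2 fold change -0.19, standard error 0.028, adjusted p = 0.00146). Its large subunit *Rrm1* and the dUTPase gene *Dut* also fell, with log2 fold changes of -0.30 and -0.43. Thymidine kinase *Tk1*, which salvages thymidine, measured 116 and 109.8 TPM in WT against 113 and 112 TPM in CypD KO, so that the groups overlapped and the 95% interval of the log2 fold change ran from -0.11 to 0.10.

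The G1/S regulators moved apart from one another. *Ccne2* measured 57.7 and 63.0 TPM in WT against 80.1 and 88.3 TPM in CypD KO (log2 fold change 0.47, standard error 0.103, adjusted p = 0.00851). Both CypD KO libraries were above both WT libraries, but the call was lost without CypD KO replicate 2 (adjusted p = 0.0566) or without WT replicate 1 (adjusted p = 0.0517). Its paralog *Ccne1* measured 117 and 103 TPM in WT against 115 and 113 TPM in CypD KO, overlapping, with a log2 fold change of 0.053 whose sign turned in the median-of-ratios scaling (-0.06). *E2f1*, the activator, measured 27.4 and 26.3 TPM in WT against 29.7 and 32.3 TPM in CypD KO (log2 fold change 0.20, adjusted p = 0.0548). *E2f2*, another activator and the least abundant member, measured 6.56 and 6.14 TPM in WT against 4.05 and 3.95 TPM in CypD KO (log2 fold change -0.56, standard error 0.092, adjusted p = 0.00259). The atypical repressor *E2f8* fell by 25.2%. Of the genes of chromatin copying and repair, *Brca1*, *Chaf1b* and *Uhrf1* fell, with log2 fold changes from -0.44 to -0.22, and *Chaf1a*, *Slbp* and *Brca2* did not pass.

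**Figure D2:**
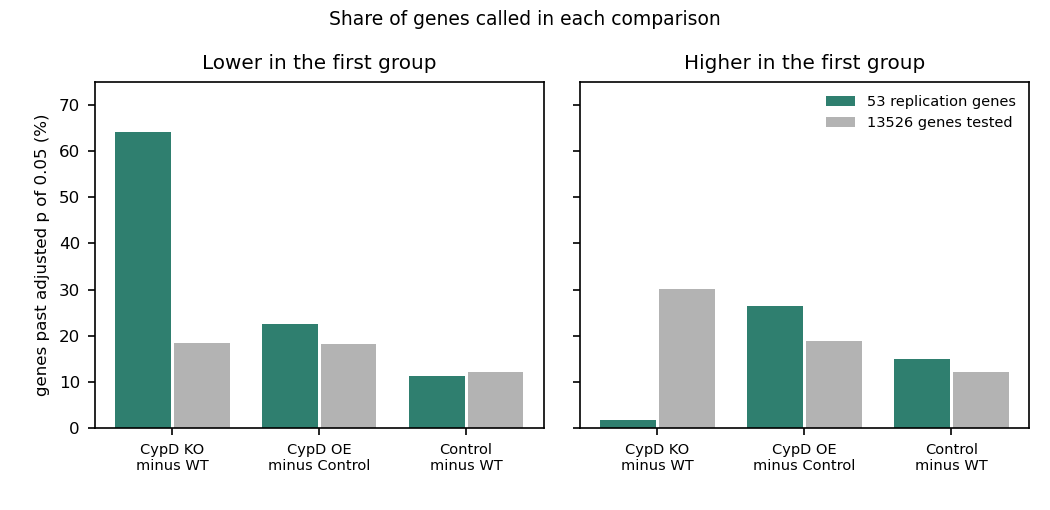
Share of genes, in percent, with a limma adjusted p under 0.05 in each of 3 comparisons, for the 53 replication genes (green bars) and the 13526 genes tested (grey bars), lower in the first-named group on the left and higher on the right. In CypD KO minus WT 64.2% of the replication genes were lower against 18.4% of all genes, while in the other comparisons the bars of a pair lie closer together.

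The libraries labelled CypD OE were compared with Control, both at 1% oxygen. *Ppif* did not pass between these groups, so the comparison rests on the labels and not on a shown difference in CypD dose. The members split, with 14 higher (26.4%) and 12 lower (22.6%), against 19.0% higher and 18.3% lower of all genes tested. Their median log2 fold change was 0.007 and that of all genes 0.002. Among the G1/S regulators 3 of 5 rose, 0 fell, and all 5 had both libraries above both Control libraries, as did 34.8% of all genes tested. Licensing had 3 members higher and 2 lower, polymerases and primase 2 higher and 3 lower, and the clamp group 1 higher and 2 lower. Without CypD OE replicate 1, 9 members were higher instead of 14.

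**Figure D3:**
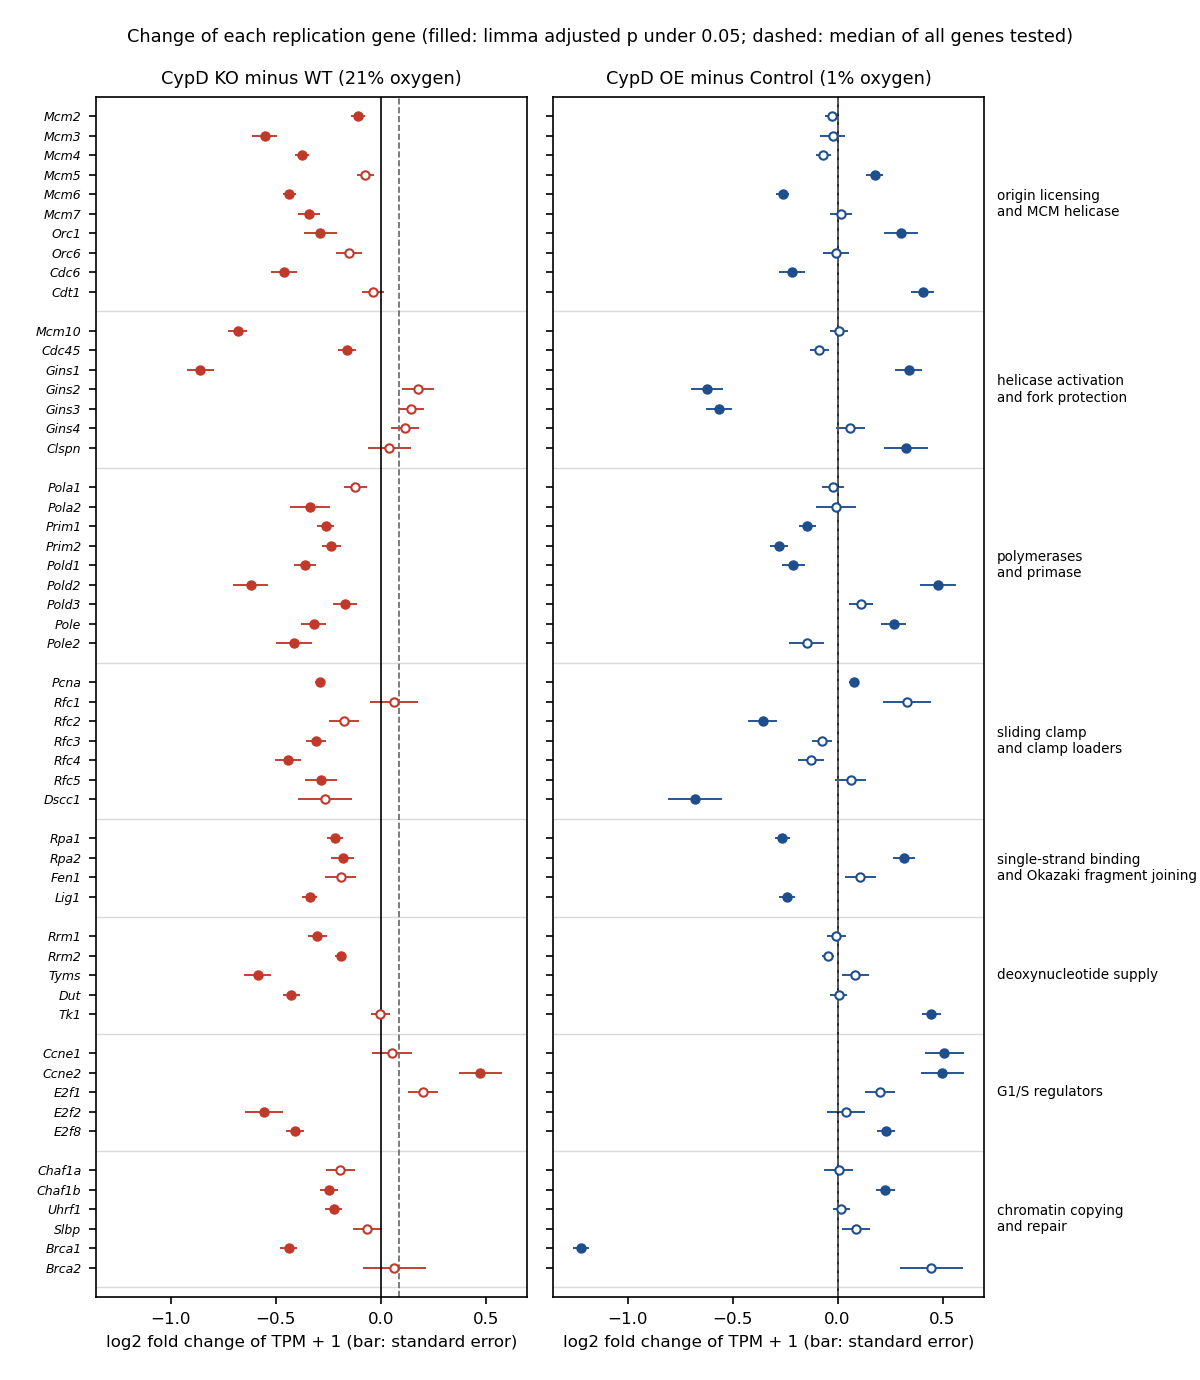
Log2 fold change of each of the 53 genes, by role, for CypD KO minus WT (left, red) and CypD OE minus Control (right, blue), with bars of 1 standard error, filled points for a limma adjusted p under 0.05 and a dashed line at the median of all genes tested. On the left 44 of 53 points lie below 0 and on the right 24 of 53, with Brca1 the farthest out at -1.22.

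Among the members past the threshold, the largest increases were in cyclins E and in genes of licensing, salvage and polymerase delta. *Ccne1* measured 57.5 and 64.6 TPM in Control against 80.9 and 93.8 TPM under the CypD OE label (log2 fold change 0.51, standard error 0.095, adjusted p = 0.00617). *Ccne2* measured 65.1 and 54.9 TPM in Control against 90.65 and 79.4 TPM under the CypD OE label (log2 fold change 0.50, standard error 0.103, adjusted p = 0.00941), a call that was lost without CypD OE replicate 1 (adjusted p = 0.0578). The groups did not overlap for either cyclin, although the libraries within a group were spread. *Pold2* rose from 35.1 and 36.1 TPM to 49.4 and 50.5 TPM (log2 fold change 0.48, standard error 0.085, adjusted p = 0.00496). *Tk1* rose from 102 and 107 TPM to 146 and 139.9 TPM (log2 fold change 0.45, standard error 0.044, adjusted p = 0.000405). *Cdt1*, which licenses origins and is destroyed once S phase starts, rose from 48.5 and 46.5 TPM to 63.35 and 63.0 TPM (log2 fold change 0.40, standard error 0.053, adjusted p = 0.0014). For these 3 genes the 2 libraries of a group lay closer to each other than to either library of the other group.

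*Brca1*, a homologous recombination gene that is transcribed in S phase, had the largest difference of all members in any of the 3 comparisons. It measured 96.76 and 96.77 TPM in Control against 41.4 and 40.5 TPM under the CypD OE label, 42.3% of Control (log2 fold change -1.22, standard error 0.04, adjusted p = 3.41e-06). Its level in the libraries labelled CypD OE was near that of CypD KO, 41.3 and 40.5 TPM, and below that of WT, 55.2 and 56.4 TPM. Both Control libraries were above every other library. *Brca2*, its partner in recombination, measured 16.3 and 13.5 TPM in Control against 18.4 and 22.9 TPM under the CypD OE label (log2 fold change 0.45, adjusted p = 0.0548), and was named after its values were seen.

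Among the other decreases, *Gins2* went from 18.7 and 18.9 TPM to 12.4 and 11.3 TPM (log2 fold change -0.62, standard error 0.077, adjusted p = 0.00114). *Gins3* went from 18.6 and 19.0 TPM to 12.2 and 12.6 TPM (log2 fold change -0.56, standard error 0.062, adjusted p = 0.00067). These subunits of one tetramer thus fell together, while *Gins1* rose from 36.0 and 37.6 TPM to 46.3 and 47.2 TPM (log2 fold change 0.34, adjusted p = 0.0076) and *Gins4* did not pass. *Dscc1* fell from 29.5 and 35.4 TPM to 20.7 and 19.0 TPM (log2 fold change -0.68, standard error 0.129, adjusted p = 0.00664). *Rfc2* fell from 109.3 and 117.2 TPM to 94.8 and 81.95 TPM (log2 fold change -0.36, standard error 0.071, adjusted p = 0.008). In each of these genes the groups stood apart.

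The remaining members named in the CypD KO comparison are given here with their levels at 1% oxygen. *Mcm10* measured 73.3 and 69.5 TPM in Control against 73.4 and 70.1 TPM under the CypD OE label, *Mcm2* at 223 and 233 TPM and at 227 and 221 TPM, and both overlapped. *Tyms* was at 131 and 142 TPM and at 143 and 146 TPM (log2 fold change 0.084, adjusted p = 0.358), and *Rrm2* at 391 and 395 TPM and at 386 and 376 TPM (log2 fold change -0.045, adjusted p = 0.25). *Pcna* rose by 5.59%, from 449.8 and 449 TPM to 469 and 479 TPM (adjusted p = 0.0415), a call lost whichever library was left out (adjusted p = 0.06 to 0.176). *Mcm5* rose from 122 and 127 TPM to 142 and 139.6 TPM (log2 fold change 0.18, adjusted p = 0.0136), which was lost without Control replicate 1 (adjusted p = 0.0722) or CypD OE replicate 1 (adjusted p = 0.0696). *Cdc6* fell from 49.6 and 53.1 TPM to 43.2 and 44.95 TPM (log2 fold change -0.22, adjusted p = 0.0299), which was lost without Control replicate 2 (adjusted p = 0.145) or either CypD OE library (adjusted p = 0.132 and 0.0694). *E2f1* was at 32.9 and 30.0 TPM and at 35.2 and 37.4 TPM (log2 fold change 0.20, adjusted p = 0.0658), and *E2f2* at 7.11 and 7.06 TPM and at 7.15 and 7.48 TPM.

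**Figure D4:**
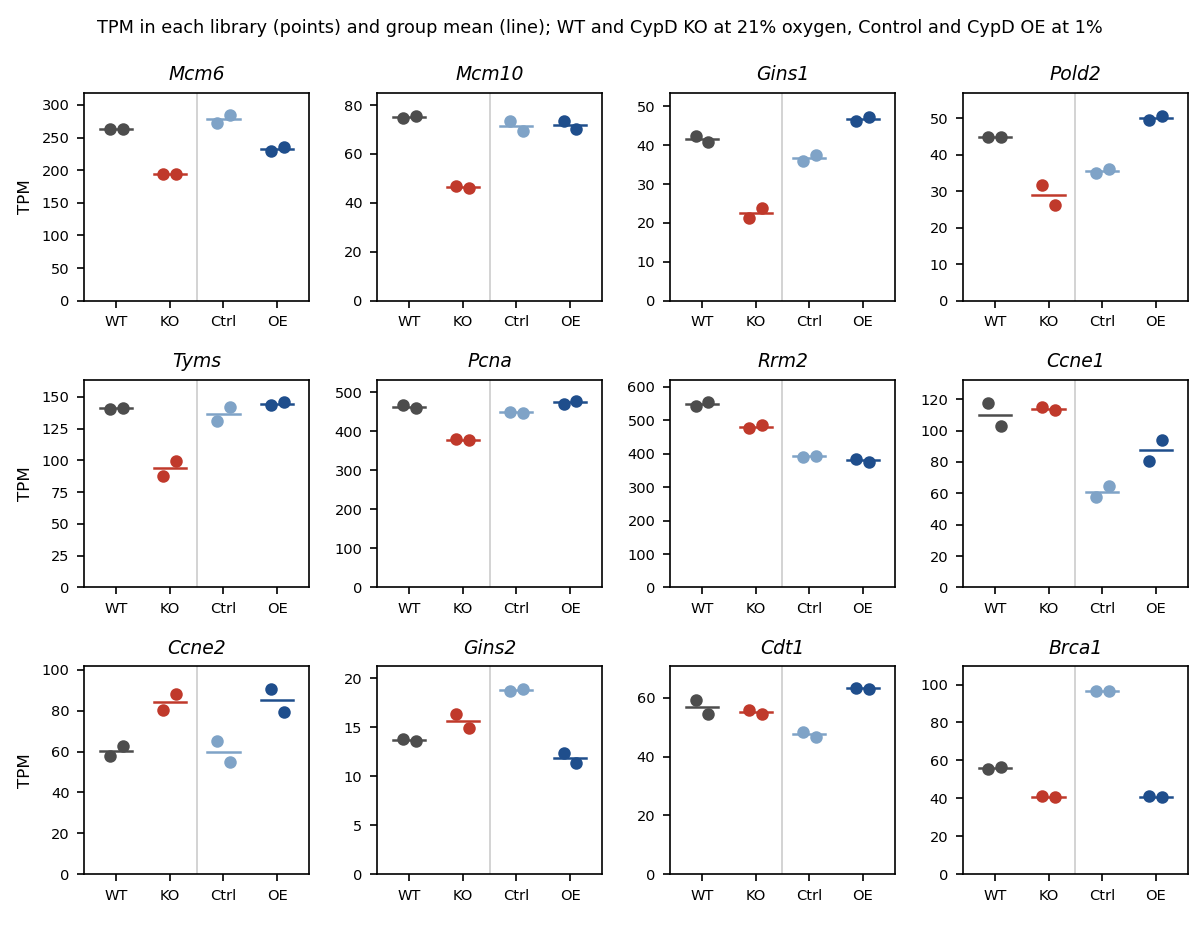
TPM of 12 replication genes in each library (points) with the mean of 2 libraries per group (lines), for WT and CypD KO (KO) at 21% oxygen and Control (Ctrl) and the libraries labelled CypD OE (OE) at 1% oxygen, each panel starting at 0. Gins1, Mcm10, Pold2 and Tyms are lowest in CypD KO, whereas Brca1 is highest in Control at 96.8 TPM and at 40.9 TPM in both CypD KO and CypD OE.

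The comparisons of CypD KO with WT and of CypD OE with Control have no library in common, so a member's place in both can be set side by side. *Gins1*, *Orc1*, *Pold2*, *Pole*, *Pcna*, *Rpa2*, *E2f8* and *Chaf1b* were lower in CypD KO and higher in the libraries labelled CypD OE, which is 8 of 53 (15.1%) against 5.13% of all genes tested. Another 8 were lower in both, namely *Mcm6*, *Cdc6*, *Prim1*, *Prim2*, *Pold1*, *Rpa1*, *Lig1* and *Brca1* (15.1% against 4.0% of all genes). Both shares reflect how many members were lower in CypD KO to begin with. Among genes lower in CypD KO, 8 of 34 members were higher under the CypD OE label, beside 694 of all 2486 such genes. For lower in both it was 8 of 34 members beside 541 of 2486 genes. On that basis the members did not stand out from all genes in either way. A further 18 were lower in CypD KO without passing in the libraries labelled CypD OE, and 1, *Ccne2*, was higher in both. The difference between the effects was tested as a contrast of its own. It passed below 0 for 27 members (50.9%) and above 0 for 3, against 18.8% and 27.4% of all genes tested, and by sign alone it was negative for 45 and positive for 8. After the correction for GC content and length 43 passed below 0, against 28.1% of all genes. The members' median was -0.27 for this contrast, -0.25 for CypD KO minus WT and 0.007 for CypD OE minus Control. The count below 0 thus largely repeats the fall in CypD KO and is not a separate result. The members farthest below 0 were *Gins1*, at -1.20 (standard error 0.094, adjusted p = 0.000108), and *Pold2*, at -1.10 (standard error 0.12, adjusted p = 0.000451). The 3 that passed above 0 were *Gins2* (0.80), *Brca1* (0.78) and *Gins3* (0.71). All 5 genes of nucleotide supply and 7 of 10 in licensing passed below 0, but only 3 of 9 among the polymerases and primase. The members whose difference between the effects did not pass included *Mcm2*, *Cdc6*, *Prim1*, *Prim2*, *Pold1*, *Lig1* and *Rpa1*.

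Control and WT differ in oxygen and in the vector with its selection, which cannot be told apart, and this comparison shares its WT libraries with the first and its Control libraries with the second. Of the members, 8 were higher in Control (15.1%) and 6 lower (11.3%), against 12.1% in either direction of all genes tested, and the medians were 0.013 and 0.012. *Ccne1* went from 117 and 103 TPM in WT to 57.5 and 64.6 TPM in Control (log2 fold change -0.84, standard error 0.095, adjusted p = 0.00151). *Rrm2* went from 543 and 556 TPM to 391 and 395 TPM (log2 fold change -0.48, standard error 0.028, adjusted p = 0.000118). Those were the only members of their roles that were lower, and neither overlapped. *Orc1*, the largest subunit of the origin recognition complex, went from 22.2 and 21.4 TPM to 15.1 and 16.9 TPM (log2 fold change -0.43, adjusted p = 0.0101), *Pold2* from 44.7 TPM in both to 35.1 and 36.1 TPM (-0.32, adjusted p = 0.0353) and *Orc6* from 97.0 and 108 TPM to 81.5 and 87.9 TPM (-0.27, adjusted p = 0.0204). *Orc1* lost its call without Control replicate 1 (adjusted p = 0.0524) or WT replicate 1 (adjusted p = 0.0548), and *Orc6* without Control replicate 1 (adjusted p = 0.1) or WT replicate 2 (adjusted p = 0.0815). *Pold2* lost it without any 1 of the WT, Control or CypD OE libraries (adjusted p = 0.0606 to 0.132).

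On the other side, *Brca1* went from 55.2 and 56.4 TPM in WT to 96.8 TPM in both Control libraries (log2 fold change 0.78, standard error 0.04, adjusted p = 6.4e-05). *Gins2* went from 13.8 and 13.6 TPM to 18.7 and 18.9 TPM (log2 fold change 0.43, adjusted p = 0.00898) and *Gins3* from 14.4 and 14.8 TPM to 18.6 and 19.0 TPM (0.35, adjusted p = 0.00907). In these 3 genes Control was the highest of the 4 groups. *Pold1* went from 39.7 and 38.2 TPM to 46.5 and 49.3 TPM (0.29, adjusted p = 0.00916) and *Lig1* from 119 and 122 TPM to 147 and 145 TPM (0.27, adjusted p = 0.00299). *Gins3* lost its call without Control replicate 2 (adjusted p = 0.0504), and *Pold1* without Control replicate 2 (adjusted p = 0.0535) or WT replicate 2 (adjusted p = 0.0518). The counts themselves were small and unsteady, at 3 to 7 members higher and 3 to 6 lower as single libraries were left out. After the correction for GC content and length 11 were lower, against 15.0% of all genes.

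E2F matches were present in 11 of the 34 members that fell in CypD KO (32.4%) and in 6 of the other 19 (31.6%). Those with a match had a median log2 fold change of -0.32 and those without of -0.20, which is given as a description only. Of the sequences shown, *Gins1* with its facing pair and *Mcm10* with none both had large falls, and *Mcm5* with its facing pair was the ring subunit nearest to no change.

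Other genes of the pathway, kept in lists beside the members, were described by their counts. Of all genes tested in CypD KO minus WT, 18.4% were lower and 30.1% higher. Of 33 other replication factors, 16 were lower and 6 higher in CypD KO than in WT (median log2 fold change -0.24 against 0.089 in all genes). *Rnaseh2b*, a subunit of the enzyme that removes ribonucleotides from DNA, fell from 34.6 and 33.9 TPM to 23.4 and 21.5 TPM. *Pold4*, the smallest subunit of polymerase delta, rose from 6.72 and 8.98 TPM to 29.1 TPM in both libraries (log2 fold change 1.78, standard error 0.195, adjusted p = 0.0004), against the direction of *Pold1*, *Pold2* and *Pold3*. The p53-inducible ribonucleotide reductase subunit *Rrm2b* rose from 13.6 and 13.3 TPM to 21.3 and 22.5 TPM (log2 fold change 0.66, adjusted p = 0.000327), against the direction of *Rrm2*.

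Of 17 tested genes of the cyclin-dependent kinase machinery of S phase, 9 were higher and 4 lower in CypD KO (median 0.52). The list holds kinase activators and inhibitors alike, and both kinds were among the largest increases. *Ccnd1*, cyclin D1, rose from 135 and 136 TPM to 418 and 415 TPM (log2 fold change 1.61, adjusted p = 1.17e-06), and *Ccnd2* from 208 and 212 TPM to 514 and 491 TPM. *Cdkn1a*, the kinase inhibitor p21, rose from 165 and 154 TPM to 459 and 450.2 TPM (log2 fold change 1.51, adjusted p = 1.24e-06). Of 14 E2F, DP and pocket protein genes 5 were higher and 2 lower, which is near the shares of all genes, and *Rb1*, the retinoblastoma protein that restrains E2F, rose from 8.95 and 9.44 TPM to 19.9 and 20.2 TPM (log2 fold change 1.05, adjusted p = 9.24e-05). The DP gene *Tfdp2* rose from 20.2 and 24.65 TPM to 29.5 and 30.0 TPM (log2 fold change 0.40, adjusted p = 0.0117). *E2f3* fell from 25.9 and 24.6 TPM to 18.9 and 19.7 TPM (log2 fold change -0.37, adjusted p = 0.00334). In the list of the replication checkpoint and homologous recombination 8 of 22 were lower and 1, *Atr*, was higher. In that of mitosis 13 of 22 were lower and 2 higher, with *Mybl2*, *Aurkb* and *Cenpe* at log2 fold changes from -0.59 to -0.49.

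In the libraries labelled CypD OE, 19.0% of all genes tested were higher and 18.3% lower. Other replication factors had 6 higher and 3 lower of 33, and the kinase machinery 9 higher and 5 lower of 17. *Cdk2*, the kinase partner of cyclins E and A, fell from 348 and 359 TPM in Control to 171 and 163 TPM (log2 fold change -1.08, adjusted p = 3.27e-06), while *Cdk6* rose from 4.44 and 5.53 TPM to 14.5 and 15.0 TPM. Both lay in the same direction in CypD KO, with *Cdk2* at 186 and 190 TPM against 266 TPM in both WT libraries. There *Cdk6* was at 15.0 and 14.8 TPM against 7.16 and 7.26 TPM in WT. Of 14 E2F, DP and pocket protein genes 5 were higher and 3 lower (median log2 fold change 0.05 against 0.002 in all genes). Among the higher, *E2f3* rose from 17.8 and 19.1 TPM to 33.2 and 31.7 TPM (log2 fold change 0.78, adjusted p = 0.000203) and the atypical repressor *E2f7* from 14.1 and 15.1 TPM to 25.8 and 26.0 TPM. *Orc2*, of the origin recognition complex, rose from 92.2 and 91.5 TPM to 137 and 126 TPM. Checkpoint genes had 3 higher and 2 lower of 22, and mitotic genes 2 higher and 6 lower of 22.

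Some members share sequence with other transcripts, and whether the counting used strand is not stated. Exons of an opposite-strand gene cover over 20% of the exons of 8 members (*Gins2*, *Fen1*, *Chaf1a*, *Rrm2*, *Rfc5*, *Rfc2*, *Pcna* and *E2f8*). The largest overlap was that of *Gins2* with *Gse1* (67.3%), which measured 6.71 and 7.03 TPM in Control against 8.19 and 9.24 TPM under the CypD OE label, with a log2 fold change of 0.30 that did not pass (adjusted p = 0.0549), beside the fall of *Gins2*. *Chaf1a* shares 51.0% with *Ubxn6*, which rose in CypD KO (log2 fold change 0.63, adjusted p = 0.000358), and *Rfc5* shares 41.4% with *Wsb2*, which fell (log2 fold change -0.43, adjusted p = 0.00211). Reads of such pairs cannot be told apart without strand, so *Gins2*, *Chaf1a* and *Rfc5* are uncertain to that extent. *Rrm2* shares 43.3% with *Gm59512*, for which no level was available, so its uncertainty could not be judged. The processed copy *Pcna-ps2* was listed at 10.2 to 16.1 TPM, and reads may have been divided between it and *Pcna*.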

How the data were processed

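RNA of 8 libraries of B16F10 cells, 2 in each of 4 groups, was sequenced by the authors after ribosomal RNA depletion, in paired-end reads of 150 bases. According to the study's methods and the submitters' processing notes, reads were trimmed with Cutadapt 3.4, aligned to Ensembl GRCm39 with STAR 2.7.8a and counted with RSEM 1.3.1. The authors deposited TPM, scaled so that each library has the same total, and RSEM shares reads with several matching genes among them. The read counts behind the authors' own DESeq2 1.26.0 tests were not used here.

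The 53 members and the other lists were chosen with earlier results of these data known. The 13526 genes (of 55414) that reached 1 TPM in 2 or more libraries were tested as log2(TPM + 1), a scale that understates changes of low genes, with limma 3.58.1 in R 4.3.3 (lmFit, eBayes with trend). Means of 4 groups shared 1 spread, tests were two-sided, and p-values were adjusted over all genes tested (Benjamini-Hochberg, threshold 0.05). An exact permutation test of 2 against 2 libraries cannot go below 0.333. On simulated data for 13526 genes, 95.5% of 200 genes with a simulated log2 change of 1 were recovered for CypD KO minus WT, with 8 false calls. The members changed by less in that comparison, from -0.86 to 0.47. Changes of that size were not simulated, so the rate does not apply to them.

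Members given by library are the 5 largest increases and 5 largest decreases past the threshold without overlap in each comparison, and 8 anchors (*Mcm2*, *Mcm5*, *Pcna*, *Cdc6*, *Ccne1*, *E2f1*, *Rrm2* and *Tyms*). Any other member given its own value was picked after its values were seen. Of each list up to 3 genes with the largest change were eligible. Depth was estimated from steps between low TPM values, of which 68.5% to 70.2% lay within 0.15 of a whole fragment against 30% if evenly spread. Gene positions and start sites came from GENCODE M39 on GRCm39, in which 98.8% of the table's genes were found. Alternatives were a pseudocount of 0.1, no filter, a filter of 5 TPM, median-of-ratios scaling, fits of 4 libraries, a replicate block, eBayes without trend, a loess correction for GC content and length, and leaving out each library. Python 3.11.15 was used.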

Additional observations from a re-analysis of the deposited data

How the results depend on the processing

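Each count of members was recomputed under every alternative. With 34 members lower in CypD KO than in WT, leaving out single libraries gave 27 to 36 and the other alternatives 31 to 44. The 1 higher member became 2 with eBayes without trend and 2 with the filter of 5 TPM, and 0 to 1 as libraries were left out (0 without WT replicate 1). For CypD OE minus Control the 14 higher ranged from 9 to 15 as libraries were left out and the 12 lower from 9 to 12. For Control minus WT the 8 higher became 5 in the fit of 4 libraries and 3 to 7 as libraries were left out (3 without Control replicate 2, 5 without WT replicate 2), and the 6 lower became 11 with the GC content and length correction and 3 to 6 as libraries were left out (3 without Control replicate 1). The 27 members whose CypD KO effect passed the threshold below the CypD OE effect became 43 with the GC content and length correction and 19 to 26 as libraries were left out, and the 3 that passed above it became 3 to 4. The fit of 4 libraries could not be made for that difference, which needs all 8. The cause of these changes was not tested.

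Replicate numbers come from the library names and were not shown to pair the libraries, since same-numbered libraries had correlations of deviations of 0.108 (CypD KO and WT), -0.002 (CypD OE and Control) and -0.019 (Control and WT), with 2 pairs each. With the replicate number as a block, 32 members were lower and 1 higher in CypD KO, 12 were higher and 12 lower in CypD OE, 6 were higher and 5 lower in Control than in WT, and 27 passed below and 3 above 0 for the difference between the effects. Of the single named genes, 3 lost their call under the block, namely *Mcm2* in CypD KO minus WT (adjusted p = 0.06), *Pcna* in CypD OE minus Control (0.0737) and *Pold2* in Control minus WT (0.051).

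Of 736 values of single named genes under the alternatives, 670 kept their direction and side of the threshold, 52 no longer passed, 4 passed that had not before and 10 changed sign, none of them a called difference. *Ccne1* in CypD KO minus WT was -0.12 with the GC content and length correction, -0.06 in the median-of-ratios scaling and -0.041 to 0.15 as libraries were left out (lowest without WT replicate 2). *Cdc6* in Control minus WT was -0.026 with that correction, -0.016 in that scaling and -0.044 to 0.053 as libraries were left out (-0.044 without Control replicate 2 and -0.013 without WT replicate 2). *Mcm2* in CypD OE minus Control was -0.058 to 0.004 as libraries were left out (0.004 without Control replicate 2), *Rrm2* in CypD OE minus Control was 0.001 with the GC content and length correction, and *Tyms* in Control minus WT was -0.11 to 0.006 as libraries were left out (0.006 without Control replicate 1). The 736 values come from 46 results, of which 33 passed in the main fit. Of those 33, 22 stayed the same under every alternative. Precision is limited by the 2 libraries per group. Depth is thinnest for *E2f2* and *Gins1*, with about 200 and 220 fragments in their lowest library.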

Other observations

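Mitochondrial DNA is copied by its own machinery, and of its 10 listed genes 2 rose and 0 fell in CypD KO (median log2 fold change 0.039). Over all genes tested 30.1% were higher and 18.4% lower, with a median of 0.089. *Dguok*, the mitochondrial deoxyguanosine kinase, was at 15.4 and 15.2 TPM in WT, 30.2 and 28.3 TPM in CypD KO, 24.4 TPM in both Control libraries and 17.0 and 18.7 TPM under the CypD OE label. It was higher in CypD KO than in WT (log2 fold change 0.89, adjusted p = 8.41e-05) and lower in the libraries labelled CypD OE than in Control (-0.43, adjusted p = 0.00316). *Ssbp1*, which coats single-stranded mitochondrial DNA, was at 111 and 115 TPM in Control and 163 and 153 TPM under the CypD OE label (0.48, adjusted p = 0.000555).

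Some members share a start region with a gene on the opposite strand. The start sites of *Brca1* and *Nbr1*, an autophagy receptor gene, lie 676 bases apart. *Nbr1* was at 42.4 and 44.7 TPM in WT, 68.5 and 71.1 TPM in CypD KO, 57.5 and 58.7 TPM in Control and 51.1 and 48.5 TPM under the CypD OE label. It was thus higher in CypD KO than in WT (log2 fold change 0.67, adjusted p = 7.22e-05), where *Brca1* was lower, and lower in the libraries labelled CypD OE than in Control (-0.22, adjusted p = 0.0133), where *Brca1* was lower too. The start sites of *Mcm4* and *Prkdc* lie 489 bases apart, and *Prkdc* was higher in CypD KO (0.42, adjusted p = 0.0198) where *Mcm4* was lower (-0.38, adjusted p = 0.000189). The start sites of *Orc1* and *Prpf38a* lie 55 bases apart, and both were lower in CypD KO, *Prpf38a* by more (-0.56, adjusted p = 9.89e-05). These pairs were named after their values were seen.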
